A study of Rattus norvegicus with 2 samples.

Results

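NRF2, encoded by Nfe2l2, is the transcription factor that switches on cellular defence against oxidants and reactive chemicals, and the group described here is 39 genes of that programme, namely the antioxidant and redox enzymes together with NRF2 and its direct regulators. Genes were taken by name and were matched to array probes through the RefSeq mRNA accession that the array design gives for each probe. Of the 39 genes, 38 had such a probe, among 13862 genes named in this way on the array, and all 38 were well above background on both arrays, among 10028 such genes in all. Pgd, which encodes an enzyme of the pentose phosphate pathway, had no matched probe and has no value here. The list was put together with earlier results of these data known, so its overall direction is a description and not independent evidence.

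The cells were neural stem cells from the hippocampus of Sprague-Dawley rats at postnatal day 3, grown without serum and with bFGF and used at passage 3. One culture condition was 2.4% sevoflurane, an inhaled general anaesthetic, for 6 h, followed by 24 h in a normal incubator with CO2 kept at 5%; the control was handled alike with 0% sevoflurane. Each condition is represented by 1 single-colour (Cy3) microarray, so no difference below has a replicate check and no p-value is given. Some labels name only the 6 h point, so the time of harvest is uncertain, and the sources used here do not say whether several cultures were pooled on an array. The cells are bulk cultures, in which fewer cells of a type and less RNA per cell cannot be told apart.

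In resting cells the adaptor protein KEAP1 holds NRF2 in the cytoplasm and passes it to a ubiquitin ligase, so that it is degraded. Oxidants and electrophiles modify cysteines of KEAP1, NRF2 then accumulates, enters the nucleus, pairs with a small MAF protein and binds antioxidant response elements. Its targets make glutathione, reduce thioredoxin, peroxides and quinones, break down haem and supply NADPH, the electron donor of most of these reactions.

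The letters of the antioxidant response element core, TGACNNNGC, were looked for on both strands of the RefSeq promoter windows (assembly GRCr8, 250 bases before to 50 bases after each annotated start), since a shared element is how this group is usually defined. The table held windows for 35 of the 39 members, and Hmox1, Gsr, Prdx6 and Sod3 were not among them. The core was present in 12 of these 35 genes (34.3%), against 13.1% of the 27457 genes in the table, and in 12 of 39 member windows against 12.1% of all 33469 windows. It was found in 7 of 18 members that were at least 2-fold higher under sevoflurane and in 5 of 16 that were within 2-fold. Akr1b8, Srxn1, Osgin1 and Nqo1, the members with the highest differences among those with a window, did not have the core in it. In 3 of the 12 sites, those of Me1, Prdx1 and Ephx1, the letters also read as an AP-1 site (TGANTCA). A match describes these letters in this window and does not show binding. The 12 sites are shown so that their shared core and differing flanks can be compared, each read 5′ to 3′ on the strand that carries the core, with the core in capitals and with up to 10 flanking bases, in order of the members' differences:
Nfe2l2: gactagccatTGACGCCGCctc
Gpx2: attcccagaaTGACTTAGCgaaaccaggt
Gclm: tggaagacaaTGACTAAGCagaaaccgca
Blvra: tccacttcggTGACCCAGCaaatatttaa
Txnrd1: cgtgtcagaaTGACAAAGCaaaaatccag
Me1: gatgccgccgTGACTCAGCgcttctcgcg
Prdx1: cggcggggtaTGACTCAGCgctttccctg
Ephx1: atagccccaaTGACTCAGCtgatctgttg
Sod2: agctaggcgcTGACCCTGCcggcagcgcc
Prdx4: cacgtttccaTGACCAAGCgagcacgaaa
Prdx5: cacccgcagaTGACTCTGCccacaggagg
Ugdh: cccaaatgtaTGACCACGCcccttgtgga

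The sites lie at different distances from their genes. The Gpx2 site lies on the strand opposite to the gene, 13 to 5 bases before the start, and the Gclm site 172 to 164 bases before it. The Prdx1, Me1 and Ephx1 cores are letter for letter the same, TGACTCAGC, at 135 to 127, 167 to 159 and 57 to 49 bases before their starts; Prdx1 and Me1 were at least 2-fold higher and Ephx1 was within 2-fold. The Nfe2l2 core lies after the start, at bases 39 to 47, and the Prdx4 core at bases 20 to 28.

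The 250 bases before the start are shown for the members with the highest differences that hold the core there, read along the gene from 5′ to 3′, with the core in capitals (it appears as its reverse complement, since all 3 lie on the opposite strand). The windows are chr6:101230034-101230283 on the minus strand for Gpx2, chr2:213031885-213032134 on the plus strand for Gclm and chr3:134802660-134802909 on the plus strand for Blvra, all GRCr8:
Gpx2: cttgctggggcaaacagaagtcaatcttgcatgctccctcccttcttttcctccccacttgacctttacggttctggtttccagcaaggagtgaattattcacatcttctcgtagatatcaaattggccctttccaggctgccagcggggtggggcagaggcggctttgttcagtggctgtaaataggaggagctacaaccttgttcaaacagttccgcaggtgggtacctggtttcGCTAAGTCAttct
Gclm: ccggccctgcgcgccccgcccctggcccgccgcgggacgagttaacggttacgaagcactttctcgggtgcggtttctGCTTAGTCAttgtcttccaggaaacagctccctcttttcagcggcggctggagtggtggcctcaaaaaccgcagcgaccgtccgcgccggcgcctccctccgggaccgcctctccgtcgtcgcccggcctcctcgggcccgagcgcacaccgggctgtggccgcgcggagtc
Blvra: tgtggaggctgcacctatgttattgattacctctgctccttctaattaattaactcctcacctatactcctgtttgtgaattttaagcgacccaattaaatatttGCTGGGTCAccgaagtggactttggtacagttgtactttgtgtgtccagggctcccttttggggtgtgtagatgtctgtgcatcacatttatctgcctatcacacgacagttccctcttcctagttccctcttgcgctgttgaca

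Signals below are the background-corrected spot intensities of the scanner software, on a linear scale. Over 24629 probes the upper quartile was 359 for sevoflurane and 692 for the control, and each array was divided by its own upper quartile before comparison, so equal printed signals correspond to a difference above 0. Differences are sevoflurane minus control in log2 units, where 1 unit is 2-fold. For the members, the error that the scanner software attaches to a spot gives an error of 0.20 to 0.30 log2 units for a difference (median 0.20). Spots of the same probe on an array had a median SD of 0.088 (sevoflurane) and 0.068 (control) log2 units. Nearly all members rest on 1 spot per array: 36 had 1 measured probe and 2 had 2 probes. These errors are technical and leave out variation between cultures, and the arrays were scanned on different days, which cannot be told apart from the treatment.

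Of the 38 members, 21 were at least 2-fold higher in the sevoflurane sample, 0 were at least 2-fold lower and 17 were within 2-fold, and their median difference was 1.12. Over all 10028 measured genes, 28.2% were at least 2-fold higher and 11.2% lower, with a median of 0.27. The difference depends on brightness on these arrays: the median was 1.69 in the dimmest of 10 equal groups of genes and 0.14 in the brightest. After correction for that trend, 17 members were at least 2-fold higher and 0 lower, with a median of 0.92, beside 15.0% and 15.5% of all genes. Quantile normalization also gave 17 higher and 0 lower, beside 13.6% higher and 19.6% lower among all genes, and the authors' deposited values gave 17 and 0, beside 13.6% and 19.2%. Scaling by the median of all probes (signals of 51.7 under sevoflurane and 46.6 in the control) gave 8 higher and 3 lower. Under it 10.5% of all genes were at least 2-fold higher and 43.5% lower, with a median of -0.83. The count of members, and the counts by role below, are therefore to be read relative to the shift of all genes.

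**Figure D1:**
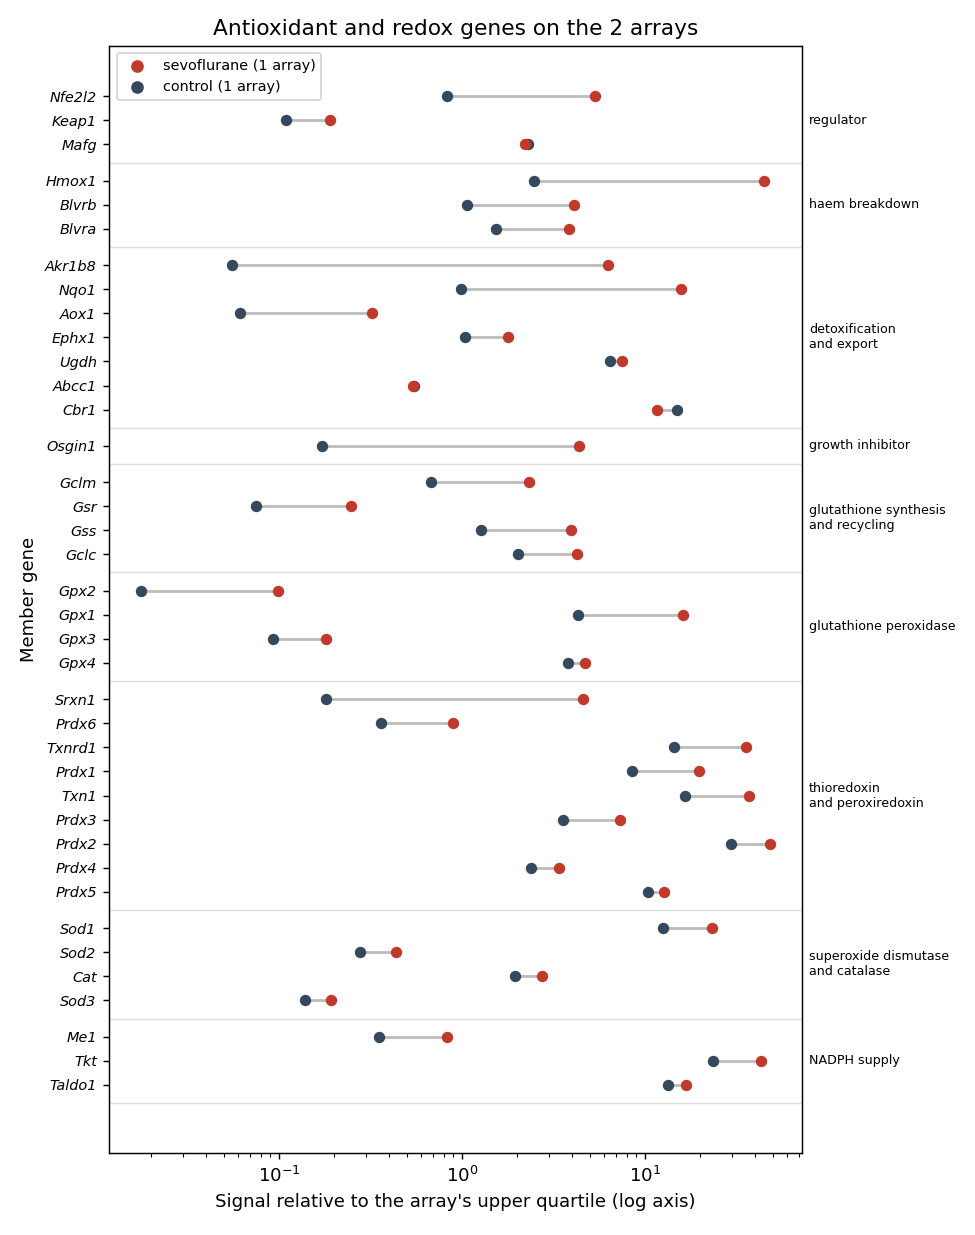
Signals of the 38 measured members on the sevoflurane array (red) and the control array (dark), each divided by its array's upper quartile, on a log axis and grouped by role; each point is 1 array and no error bar can be drawn. Akr1b8, Srxn1, Osgin1, Hmox1 and Nqo1 have the longest gaps, and Cbr1, Mafg and Abcc1 are the 3 members at or below the control.

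The regulators of the pathway differed from one another. Nfe2l2, the gene of NRF2 itself, had signals of 1929 under sevoflurane and 573 in the control, a difference of 2.70 (2.88 after the intensity-dependent correction), and was at least 2-fold higher under every setting tried. Keap1, the inhibitor, had low signals of 68.2 and 76.2 and a difference of 0.79, which came to 0.02 after the correction and was negative after quantile normalization (-0.06). Mafg, a small MAF partner of NRF2, had signals of 798 and 1592 and a difference of -0.05. Of the 3 regulators, Nfe2l2 was thus at least 2-fold higher, and Keap1 and Mafg were within 2-fold. Over all measured genes 28.2% were at least 2-fold higher.

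The 3 genes of haem breakdown were all at least 2-fold higher, beside 28.2% of all measured genes. Hmox1, haem oxygenase 1, which opens the haem ring to give biliverdin, iron and carbon monoxide, had a signal of 16186 under sevoflurane against 1714 in the control, a difference of 4.19 with 3.09 as the lowest value under any setting. Blvra and Blvrb encode the biliverdin reductases, of which BLVRB also reduces flavins. Blvrb had signals of 1483 and 737 and differed by 1.95, and Blvra had signals of 1387 and 1062 and differed by 1.33. Hmox2, the constitutive haem oxygenase, which is no member and was looked at after the values of Hmox1 were seen, had signals of 328 and 1102 and differed by -0.80.

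Among the enzymes of detoxification and export, 3 of 7 were at least 2-fold higher, beside 28.2% of all measured genes. Akr1b8, an aldo-keto reductase that reduces reactive aldehydes, had the highest difference of all members, 6.84, with signals of 2276 under sevoflurane and 38.2 in the control, and ranked 20 among 10028 genes. It came to 5.37 with normexp background correction, whose offset compresses differences from dim signals. Nqo1, the quinone reductase that is the standard readout of NRF2 activity, had signals of 5681 and 689, a difference of 3.99. Aox1, aldehyde oxidase, was dim at 116 and 42.6 and differed by 2.39 (1.61 after the correction).

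The other 4 genes of that role stayed within 2-fold. Ephx1, the microsomal epoxide hydrolase, had 2 probes, with differences of 0.77 and 0.94. Ugdh, which makes the sugar donor for glucuronidation, had signals of 2684 and 4458 and differed by 0.21. Abcc1, which exports glutathione conjugates, had signals of 194 and 379 and differed by -0.02. Cbr1, carbonyl reductase 1, had signals of 4205 and 10372 and a difference of -0.36, and it was the only member below 0 under all settings tried. These are enzymes of the same broad function as Nqo1 and Akr1b8, so the group was not uniform even within a role.

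Close relatives of Akr1b8 and Aox1 on the array were looked at after their values were seen, because probe cross-hybridisation within families was not tested and probe sequences were not used here. Akr1b1, aldose reductase, had signals of 14199 and 6124 and differed by 2.16 (1.85 after the correction). Akr1b10 had signals of 32.0 and 3.89 and was well above background only on the sevoflurane array. Akr1b7 was not well above background on either array. Aox3 had signals of 42.2 and 20.6 and differed by 1.98 (0.54 after the correction), and Aox2 was not well above background on either array. Aox4 had signals of 28.1 and 6.36 and was well above background only on the sevoflurane array. Dim genes in general read higher on that array, and detection on it alone was not counted over all genes.

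Osgin1, which encodes an oxidative stress-induced inhibitor of growth, had signals of 1567 under sevoflurane and 119 in the control. Its difference was 4.66, with 3.57 as the lowest value under any setting, and it ranked 70.

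All 4 genes that make or recycle glutathione, the main small thiol of the cell, were at least 2-fold higher, beside 28.2% of all genes. Gclm and Gclc encode the modifier and catalytic subunits of glutamate-cysteine ligase, the rate-limiting step. Gclm had signals of 833 and 469 and differed by 1.78, and Gclc had signals of 1533 and 1400 and differed by 1.08. Gclc was thus at the 2-fold limit, at 0.98 with normexp and at -0.019 with scaling by the median of all probes. Gss, glutathione synthetase, had signals of 1427 and 881 and differed by 1.64. Gsr, which returns oxidised glutathione to its reduced form, was dim at 89.5 and 52.0 and differed by 1.73, or 0.93 after the intensity-dependent correction.

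Of the glutathione peroxidases, which use glutathione to remove peroxides, 2 of 4 were at least 2-fold higher, beside 28.2% of all genes. Gpx1, the main cytosolic form, had signals of 5816 and 2993 and differed by 1.90 (1.89 after the correction). Gpx2, known from gut epithelium, was dim, at 35.7 and 12.2, and its difference of 2.50 came to 0.89 after the correction and 0.74 after quantile normalization. Gpx3, the secreted form, had nearly equal signals of 65.0 and 64.6 and a difference of 0.95 (0.12 after the correction). Gpx4, which removes lipid peroxides from membranes and guards against ferroptosis, had 2 probes at 0.32 and 0.21. Only Gpx1 among the 4 was therefore above 2-fold both as scaled here and after the correction.

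In the thioredoxin and peroxiredoxin system, 6 of 9 genes were at least 2-fold higher, beside 28.2% of all genes. The differences of the 6 were far apart in size. Srxn1, sulfiredoxin, which repairs peroxiredoxins whose cysteine was over-oxidised, had signals of 1651 under sevoflurane and 125 in the control, a difference of 4.67, and ranked 69. The genes of its substrates were closer to the control, with Prdx1 at 1.22, the mitochondrial Prdx3 at 1.04, Prdx2 at 0.71 and Prdx4, which works in the endoplasmic reticulum, at 0.50. Prdx6 and Prdx5, peroxiredoxins of other classes, were at 1.31 and 0.28.

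The signals of the peroxiredoxin genes show how close to 2-fold these values are. Prdx6 had signals of 321 and 249, and Prdx1 of 7117 and 5869. Prdx3 had signals of 2621 and 2460, and its difference was -0.058 with scaling by the median of all probes. Prdx2 had signals of 17462 and 20588 and came to 0.14 after the correction. Thioredoxin itself, Txn1, had signals of 13296 and 11478 and differed by 1.16, and its cytosolic reductase gene Txnrd1 had signals of 12824 and 9998 and differed by 1.31. After the correction Txn1 was at 0.75 and Txnrd1 at 0.93, both below 2-fold, because the trend lies above 0 at their level. Txn1, Prdx1 and Gpx1 belong to families with processed pseudogenes, whose share in a probe's signal was not tested.

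The superoxide dismutases and catalase, which remove superoxide and hydrogen peroxide without NADPH, were within 2-fold in all 4 cases. Among all measured genes 28.2% were at least 2-fold higher and 11.2% lower, so most were also within 2-fold. Sod1, the cytosolic enzyme, had signals of 8420 and 8721 and differed by 0.90 (0.62 after the correction). Sod2, the mitochondrial enzyme, had signals of 157 and 193 and differed by 0.65. Cat had signals of 984 and 1361 and differed by 0.48. Sod3, the extracellular form, was dim, at 68.9 and 95.7, and differed by 0.47 here but by -0.22 after the correction.

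Of 3 measured genes that supply NADPH, 1 was at least 2-fold higher, beside 28.2% of all measured genes. Me1, cytosolic malic enzyme, had signals of 299 and 243 and differed by 1.25 (1.18 after the correction). Tkt and Taldo1 encode transketolase and transaldolase of the non-oxidative pentose phosphate pathway. Tkt had signals of 15605 and 16360 and differed by 0.88 (0.37 after the correction), and Taldo1 had signals of 6001 and 9273 and differed by 0.32.

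**Figure D2:**
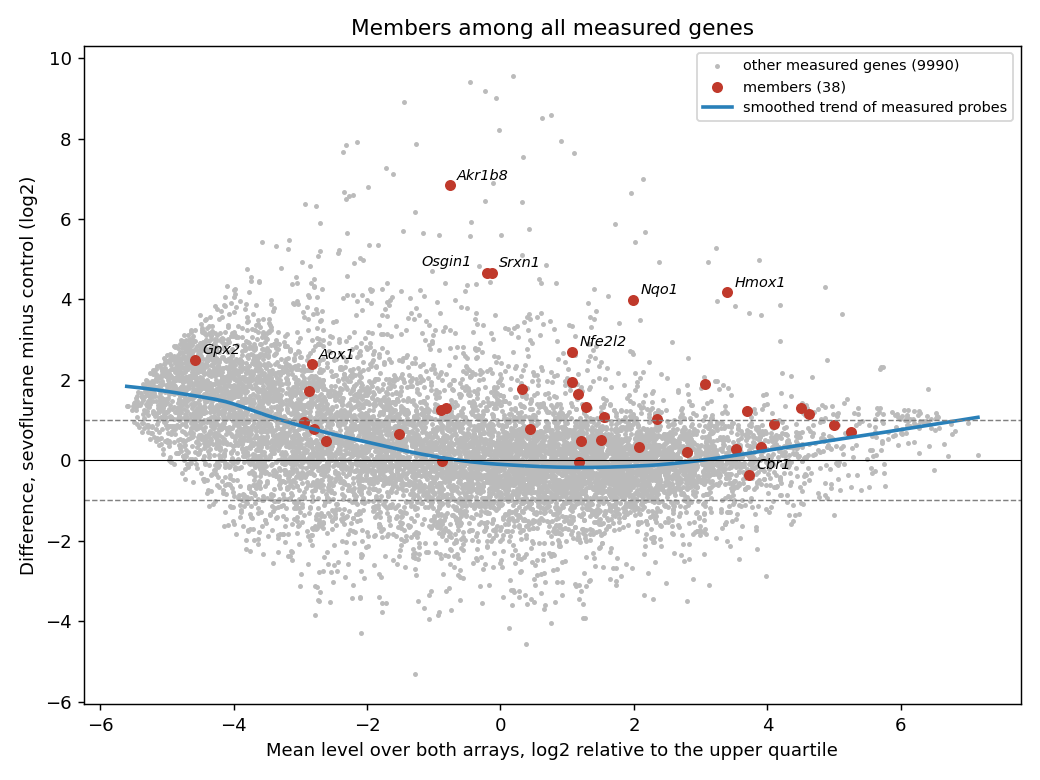
Difference (log2, sevoflurane minus control) against mean level (log2, relative to the upper quartile) for 38 members (red) and the other 9990 measured genes (grey), with the smoothed trend in blue and dashed lines at 2-fold; 1 array per condition. Most members lie above the trend, with Akr1b8 at 6.84 the highest and Cbr1 at -0.36 the lowest.

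Placed among all measured genes, 5 members (Akr1b8, Srxn1, Osgin1, Hmox1 and Nqo1) were within the 200 highest differences and 8 within the 1000 highest, and 34 of 38 were above the median of all genes (35 after the intensity-dependent correction). The members thus fall into a few very high genes and a larger number between 0 and 2 log2 units. The steepest 3, Akr1b8, Srxn1 and Osgin1, had low control signals, of 38.2, 125 and 119, whereas Hmox1 and Nqo1 started from 1714 and 689. Of the 21 higher members, 7 (Nfe2l2, Hmox1, Nqo1, Akr1b8, Aox1, Osgin1 and Srxn1) were at least 2-fold higher under all 11 settings, and 15 under all but scaling by the median of all probes. The remaining 6, Gclc, Gsr, Gpx2, Txn1, Txnrd1 and Prdx3, were below 2-fold under at least 1 further setting; Gpx2 kept 2-fold with the median of all probes (1.40) but not in the authors' value table, with the intensity-dependent correction or with quantile normalization.

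**Figure D3:**
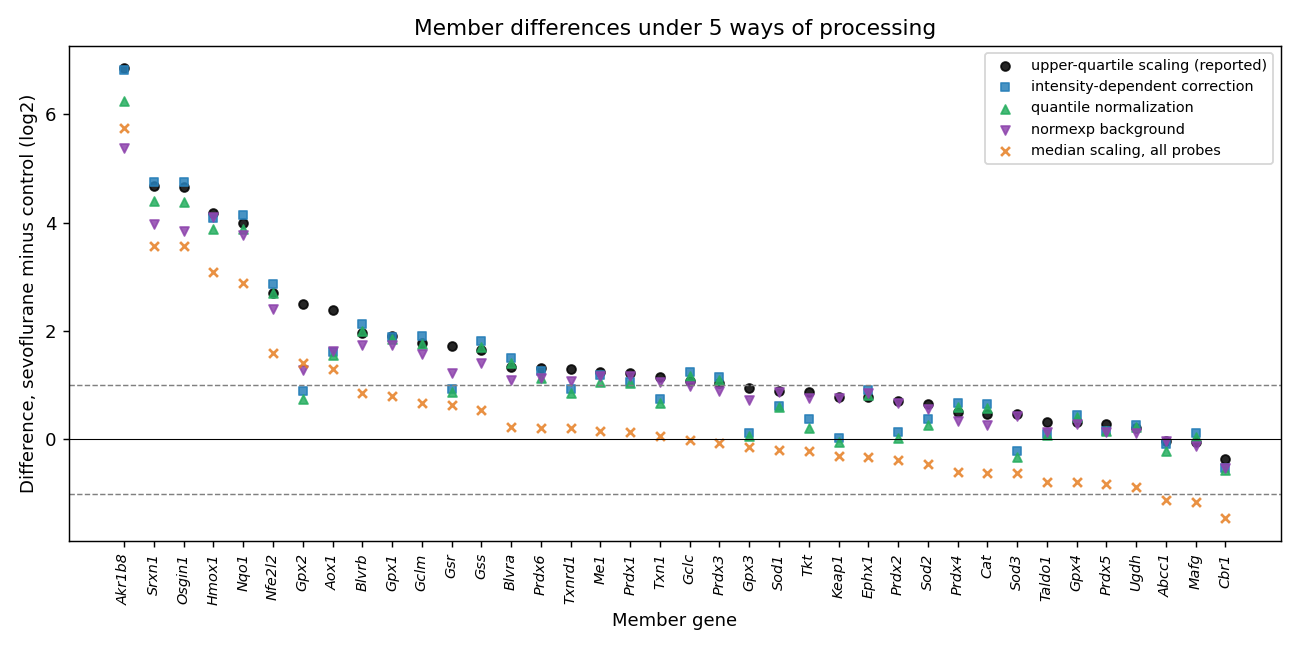
Difference of each of the 38 members (log2, sevoflurane minus control; each point is from 1 array per condition) under upper-quartile scaling and under 4 of the alternatives, with dashed lines at 2-fold. The 6 highest members (Akr1b8 to Nfe2l2) stay above 2 under upper-quartile scaling, the intensity-dependent correction, quantile normalization and normexp, while scaling by the median of all probes lowers each member by a fixed amount.

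Further genes of the pathway, listed by function, were described in the same way, to be read against 28.2% higher and 11.2% lower among all genes. Like the members, these lists were chosen with earlier results of these data known, so their directions are no independent evidence. Of 21 measured NRF2 targets outside the group, 12 were at least 2-fold higher (11 after the correction) and 0 lower, and the median was 1.10. Ptgr1, a reductase of reactive alkenals, had signals of 1507 and 133 and differed by 4.44. Slc7a11, the cystine importer that feeds glutathione synthesis, had signals of 1956 and 298 and differed by 3.66. Rxra, a nuclear receptor gene, differed by 2.90, and the dehydrogenase genes Adh7 and Aldh3a1 by 2.71 and 2.13, from dim control signals of 24.0, 23.8 and 33.5 (1.84, 1.59 and 1.12 after the correction).

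Of 15 measured other regulators of NRF2, 2 were higher and 3 lower, around a median of -0.29, beside 28.2% and 11.2% of all genes. The list mixes repressors with partners of NRF2, so its median has no single meaning for the pathway. Bach2, a repressor of the BACH family, had signals of 187 and 1924 and differed by -2.42. Bach1, the repressor that competes with NRF2 at Hmox1, was dim at 39.9 and 14.0, and its difference of 2.46 came to 0.91 after the correction. Cul3, the scaffold of the ubiquitin ligase that KEAP1 serves, had signals of 85.6 and 408 and differed by -1.31. Its difference was -1.54 after the correction and -0.67 with normexp. The kinase gene Fyn differed by -1.28 (-1.65 after the correction and -0.59 with normexp). Maff, another small MAF gene, had signals of 15.1 and 9.59, and its difference of 1.60 was negative after the correction, after quantile normalization and in the authors' deposited table.

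Of 18 further thiol redox genes, 4 were at least 2-fold higher and 2 at least 2-fold lower, and the median was 0.43; these shares are close to the 28.2% and 11.2% of all genes. Selenop, the secreted selenium carrier, had signals of 206 and 2309 and differed by -2.54. Txnip, which binds and inhibits thioredoxin, had signals of 755 and 3114 and differed by -1.10 (-0.93 after the correction). Msrb2, a mitochondrial methionine sulfoxide reductase, and Gpx8, a peroxidase of the endoplasmic reticulum, differed by 1.80 and 1.69. Ggct, which acts in glutathione turnover, was at 1.82 (0.98 after the correction).

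Among genes whose products make oxidants, 7 of 18 were measured on both arrays, 2 were higher and 1 was lower. This count rests on the filter on dim probes, since 8 of 13 genes with a probe were at least 2-fold higher without it. Without that filter 46.1% of all 13862 genes were also at least 2-fold higher, with a median of 0.78. Cybb, Ncf4, Xdh, Nos1 and Nos2 were well above background on the sevoflurane array only. How many of all genes were so on either array alone was not counted, so these genes cannot be set against the rest. Dim genes in general read higher on the sevoflurane array. In the dimmest group of genes measured on both arrays, 75.6% were at least 2-fold higher and 0.3% lower. Duox1 had signals of 117 and 62.2 and differed by 1.86, and Nox4 had signals of 53.8 and 29.6 and differed by 1.81 (0.61 after the correction). Ncf1, a subunit of the phagocyte oxidase, had signals of 12.1 and 83.6 and differed by -1.84. Its difference was -3.22 after the correction and -0.23 with normexp. Ero1a, the oxidase of the endoplasmic reticulum, was at -0.94 and Nos3 at 0.66.

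Markers of cell types moved as well, and their part in the members' differences was not tested. Their counts are to be read against 28.2% higher and 11.2% lower among all genes. After the intensity-dependent correction these shares were 15.0% and 15.5%. Of 11 neural stem cell markers 10 had a matched probe, and all 10 passed the background filter. Of these, 2 were at least 2-fold higher (1 after the correction) and 0 lower, with a median difference of -0.16. Vim and Fabp7 were at 0.93 and -0.45. The summed level of these markers relative to the upper quartile was 79.1 in the control and 102 under sevoflurane. Vim was the largest part of both sums, with signals of 26446 under sevoflurane and 26814 in the control. Its difference came to 0.23 after the correction. Without Vim the sum was lower under sevoflurane than in the control. Of the 10 markers, 5 were above 0 and 5 below. All 9 measured red cell markers were at least 2-fold higher, or 8 after the correction, where the dim Gata1 came to 0.18. Their summed level relative to the upper quartile was 25.9 in the control and 144 under sevoflurane. Most of that sum came from Hbb, with signals of 41993 under sevoflurane and 16170 in the control. Hbb, a haemoglobin chain gene with near-identical copies, and Alas2, the red cell enzyme of haem synthesis, differed by 2.32 and 3.31. Red cells are rich in peroxiredoxin 2, catalase, BLVRB and GPX1, whose genes differed by 0.71, 0.48, 1.95 and 1.90. Of 12 microglial markers 9 were lower and 1 was higher, and their summed levels were 19.0 in the control and 3.91 under sevoflurane (C1qa at -3.45 and C1qb at -0.94). Of 8 neuronal markers 5 were lower (7 after the correction) and 0 higher, with summed levels of 121 in the control and 51.7 under sevoflurane. Tubb3 and Stmn2 were at -0.74 and -1.05 (-1.35 and -1.38 after the correction). Astrocyte markers were higher in 3 and lower in 3 of 9, but higher in 1 and lower in 5 after the correction. Their summed levels were 18.1 in the control and 12.4 under sevoflurane, with Gja1 at 0.10 and Sparcl1 at -1.87. Mesenchymal markers were higher in 4 and lower in 0 of 7 (34.1 and 46.3, with Col1a2 at 0.36 and Lum at 0.62).

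**Figure D4:**
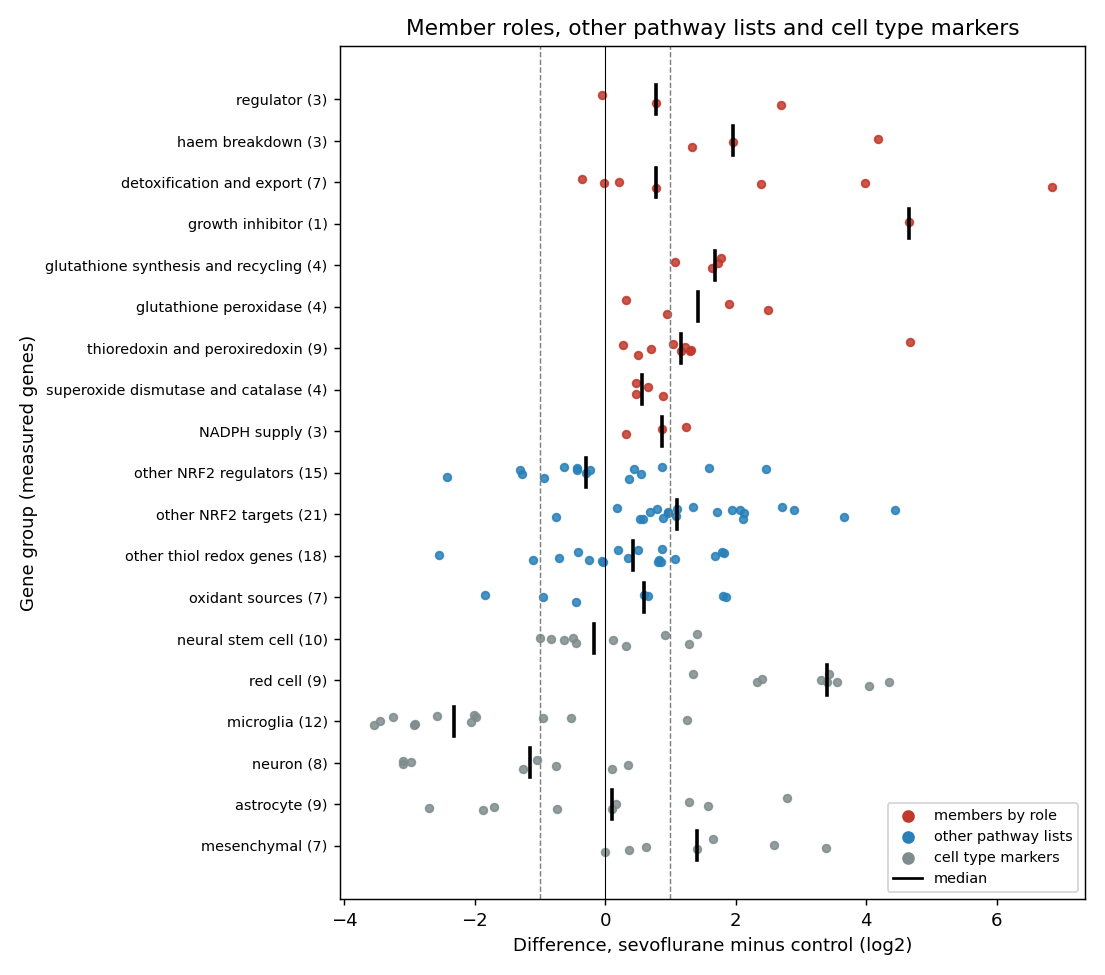
Differences (log2, sevoflurane minus control, 1 array per condition) of the members by role (red), of 4 further pathway lists (blue) and of cell type markers (grey), each point a gene measured on both arrays, with black bars at the medians and dashed lines at 2-fold. The medians are 1.12 for the members, 1.10 for the other NRF2 targets and -0.29 for the other NRF2 regulators. The last list mixes repressors with partners of NRF2. All lists were chosen with earlier results of these data known.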

How the data were processed

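Messenger RNA was measured on 1 Agilent single-colour array per condition. The authors deposited scanner files with linear spot intensity from Agilent Feature Extraction 11.0.1.1 (file headers, submitters' processing notes), background-subtracted and not scaled between arrays. A second table deposited by the authors holds values read here as log2 intensity, since over 24431 probes it correlated at 0.991 (sevoflurane) and 0.993 (control) with log2 scanner signals. Its medians were 5.61 and 5.60, and how it was made is not stated in those sources.

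Control spots and outlier spots (521 of 42136 and 580) were left out, log2 signals were averaged per probe, and arrays were aligned by their 75th percentile over probes. A probe was measured when most of its spots were well above background on both arrays; no member spot was saturated. Accessions were named through the RefSeq gene table of GRCr8, while the array design refers to rn4. Where a gene had several measured probes, the brightest stood for it. The number of arrays limits the precision: with 1 per group no test was run, and at least 2-fold served as the size rule. The calculations were tested on simulated data with known shifts of some genes. Those data had no trend with brightness, so they do not show how the 2-fold rule performs under the trend of the real arrays.

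The alternatives were quantile, median and other percentile scaling, a lowess correction (fraction 0.3, statsmodels 0.14.6), normexp with an offset of 50 (limma 3.58.1, on median spot signals), keeping outlier spots, no filter on dim probes, the deposited table and the mean over probes. All members were described, with up to 5 genes of each other list with the highest absolute difference and the 2 brightest markers of each cell type. The members and lists were chosen with earlier results of these data known.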

Additional observations from a re-analysis of the deposited data

How the results depend on the processing

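The count of members at least 2-fold higher was 21 here and 17 to 24 under 9 of the 10 alternatives, with 0 lower, and it was 8, with 3 lower (Cbr1, Mafg and Abcc1), when each array was scaled by the median of all probes. With the median of all probes, 10.5% of all genes were at least 2-fold higher and 43.5% lower. Under that scaling Gclc and Prdx3 changed sign, to -0.019 and -0.058, and no other member that was at least 2-fold higher here did so under any alternative. The median over members, 1.12 here, was 0.84 after quantile normalization and in the authors' deposited table, 0.92 after the intensity-dependent correction and with the median of measured probes, 1.24 with the 75th percentile of measured probes, and 0.022 with the median of all probes. The median over all measured genes, 0.27 here, was -0.10, -0.10, -0.0016, 0.073, 0.39 and -0.83 in the same order, and 0.78 with no filter on dim probes. Scaling by the median of measured probes was chosen after seeing the data. Other NRF2 regulators lost both of their higher genes after the intensity-dependent correction and after quantile normalization. No paired analysis was possible because the conditions have 1 array each, which also leaves no array to leave out. Low signals limit the values of Akr1b8, Aox1, Gsr, Gpx2, Gpx3, Keap1 and Sod3, whose control signals were under 100.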
